A study of Homo sapiens with 4 samples.

Results

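The core spliceosome genes examined here are 52 genes that encode the proteins of the U1, U2 and U4/U6.U5 small nuclear ribonucleoproteins (snRNPs), the SF3a and SF3b complexes, the U2AF heterodimer, the PRPF19 complex with its partners, and the DEAH-box helicases. They were chosen by gene symbol, 1 row per symbol, from a table of 60302 genes. All 52 were found, each as 1 row, and all 52 averaged 1 FPKM or more (fragments scaled for gene length and library size, so that levels of different genes can be compared), the level from which genes were tested. In all 13110 genes reached it. PolyA-selected RNA of HMLE cells was sequenced in 2 groups of 2 samples. HMLE is a line of human mammary epithelial cells immortalized in culture. In the hnRNPF knockdown samples the cells stably expressed, from a lentiviral vector, a short hairpin RNA against HNRNPF. In the control samples they stably expressed, from the same kind of vector, a non-specific hairpin. The labels do not say how many hairpins, infections or clones the samples stand for, so the p-values speak of the variation among these 4 samples, which may be technical.

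Splicing removes introns from pre-mRNA on the spliceosome, which assembles anew on each intron. U1 recognises the 5′ splice site, U2 the branch site, and the tri-snRNP of U4, U6 and U5 then joins and is remodelled by helicases into the catalytic form, which the PRPF19 complex stabilises. Every snRNP holds a ring of 7 small proteins, the Sm ring in U1, U2, U4 and U5 and the LSM ring in U6. hnRNP F is not part of this machinery but binds G-rich RNA near splice sites and changes how often an exon is used. The comparison asks how the messenger RNA levels of the core machinery stand in cells depleted of this regulator. The table holds 1 value per gene and sample, so splicing itself was not analysed here.

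HNRNPF (chromosome 10, 43881065 to 43904614, minus strand, GRCh37) stood at 18.7 and 16.6 FPKM in knockdown samples 1 and 2, against 154 and 153 FPKM in controls 1 and 2. Every sample matched its label. HNRNPF was the only gene of the whole table past an adjusted p of 0.05 (limma, log2 fold change -3.05, SE 0.0986, adjusted p = 0.0251), which is 0.00763% of the genes tested. The adjusted p of HNRNPF was 0.262 without control 1 and 0.104 without control 2 (limma). It was 0.164 with the replicate number as a block, 0.259 without the filter on low values and 0.0995 without the intensity trend of the fit, while the log2 fold change stayed at -3.05 (limma). Depth was estimated by taking the lowest step of the values as 1 fragment. It came to about 80600000 and 85000000 fragments in the knockdown samples and about 77400000 and 84200000 in the controls. Only 38.3% to 41.9% of low values were multiples of that step, so these depths are uncertain. The 8 breast epithelial markers summed to between 9465 and 10609 FPKM in knockdown and between 7498 and 11169 FPKM in the controls. This sum was mostly KRT5 and KRT14, whose groups overlapped, as did those of CDH1 and LAMB3. KRT18 and EPCAM were lower in both knockdown samples than in both controls, and KRT17 and TP63 were higher. Such a separation, in either direction, held for 34.6% of all tested genes. EPCAM, for example, was at 38.6 and 38.9 FPKM in knockdown, against 56.4 and 45.9 FPKM in the controls, and KRT17 at 1786 and 2170 FPKM in knockdown, against 975 and 1573 FPKM in the controls. The part of these markers in the results on the 52 genes was not tested. The blood and endothelial markers PTPRC, CD3E, VWF and CDH5 stayed under 0.05 FPKM in every sample. The blood marker CD68 was at 11.2 to 12.1 FPKM. Of the 5 fibroblast markers, COL1A1 was present at 9.24 to 12.3 FPKM over the 4 samples. In bulk samples like these, fewer cells of a type and less RNA per cell cannot be told apart.

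None of the 52 core spliceosome genes differed between the groups past the threshold: 0 of 52 at an adjusted p under 0.05, with a smallest adjusted p of 0.83 (limma), and 0 of 52 at an unadjusted p under 0.05. Among all tested genes 6.08% lay under that unadjusted p, 3.02% lower and 3.06% higher in knockdown. For each of the 52 the ratio of the knockdown mean to the control mean lay within 1.25-fold of 1 (80.0% of all tested genes). For 37 the ratio lay within 1.1-fold, against 49.1% of all tested genes. Among the 9078 genes averaging 5 FPKM or more, which include all 52, 14.8% lay beyond 1.25-fold. On the log2(FPKM + 1) scale, the 95% interval of the log2 fold change lay inside a 2-fold change for 52 of 52 genes. It lay inside a 1.5-fold change for 44 and inside a 1.25-fold change for 16. Among all tested genes, which include those under 5 FPKM, these shares were 87.1%, 51.8% and 5.70%. The half-width of the 95% interval, the error on either side of a gene's estimate, ran from 1.16-fold to 1.71-fold over the 52 genes. Its median was 1.22-fold, against 1.34-fold over all tested genes. For 32 of the 52 it was under 1.25-fold, against 21.8% of all tested genes.

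**Figure D1:**
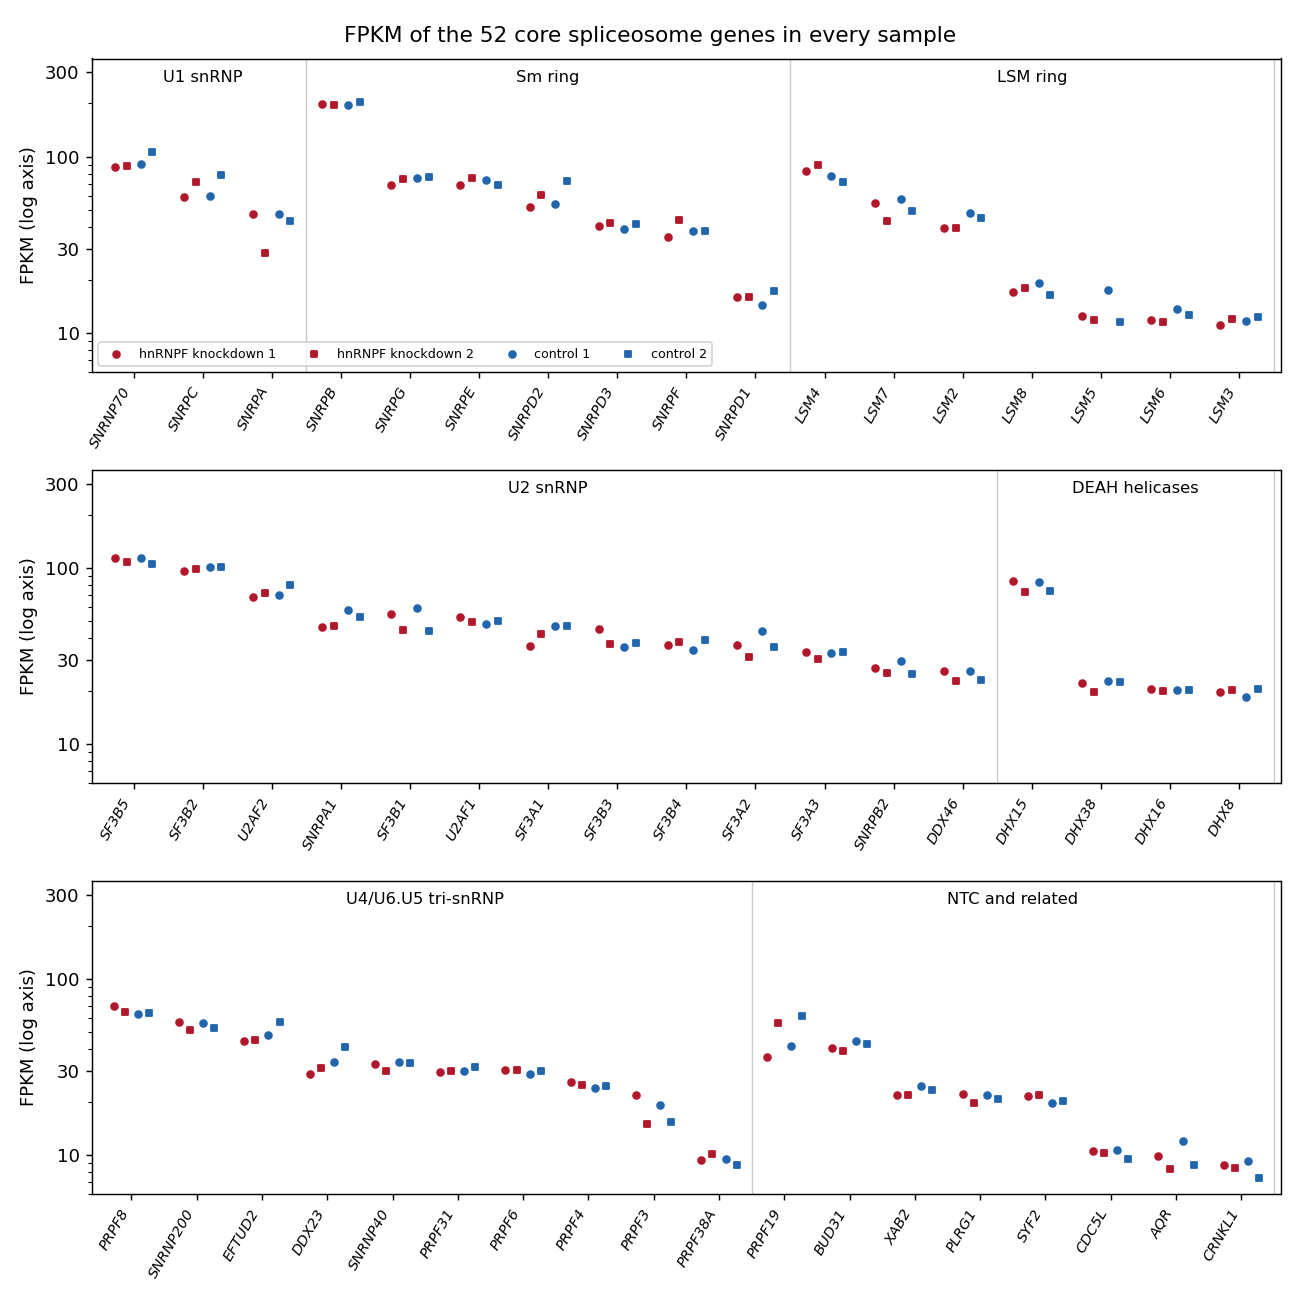
FPKM (vertical, log axis) of each of the 52 core spliceosome genes in the 2 hnRNPF knockdown samples (red) and the 2 controls (blue), circles for replicate 1 and squares for replicate 2, by role and in falling order of level. The genes span 8.5 to 199 FPKM while the 4 points of a gene lie close together, with the widest gaps for SNRPA, PRPF19 and LSM5.

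Knockdown values lay mostly a little below control values. The log2 fold change was below 0 for 33 of 52 genes, against 49.8% of all tested genes. The median was -0.046, against 0.0012 for all tested genes. Among genes averaging 5 FPKM or more, which include all 52, the median was -0.013. For 14 of 52 genes the higher knockdown value lay below the lower control value (26.9%, against 17.1% of all tested genes) and for 5 the reverse held (9.62%, against 17.5%), which makes 19 without overlap, against 34.6% of all tested genes. The 52 genes together held 2243 and 2218 FPKM in the knockdown samples, against 2307 and 2326 FPKM in the controls, so both knockdown sums were below both control sums. As a share of all FPKM these sums were 0.573% and 0.56% in knockdown and 0.586% and 0.593% in the controls. Some of these counts depended on scaling. Under median-ratio scaling 33 of 52 log2 fold changes were still below 0, with a median of -0.046. Without overlap 9 genes were then lower (17.3%, against 17.6% of all tested genes) and 1 higher (1.92%, against 17.6%). Under quantile normalization 29 of 52 were below 0, with a median of -0.021. There 11 genes were lower without overlap (21.2%, against 18.9% of all tested genes) and 4 higher (7.69%, against 17.0%). The tendency toward lower values also depended on single samples: relative to the median of all tested genes the median of the 52 was -0.086 without control 1 and -0.067 without knockdown 2, but 0.014 without control 2 and 0.014 without knockdown 1.

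The difference between 2 samples of the same group was as large as the difference between the group means. These are unlike measures, because a mean of 2 samples varies less than a single sample. The median size of the log2 difference between the replicates was 0.09 in knockdown and 0.11 in the controls, and the median size of the log2 fold change between the groups was 0.07. Over all tested genes, which include genes at lower levels than any of the 52, these medians were 0.17, 0.19 and 0.12. The group difference exceeded both replicate differences for 11 of 52 genes, against 23.6% of all tested genes.

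**Figure D2:**
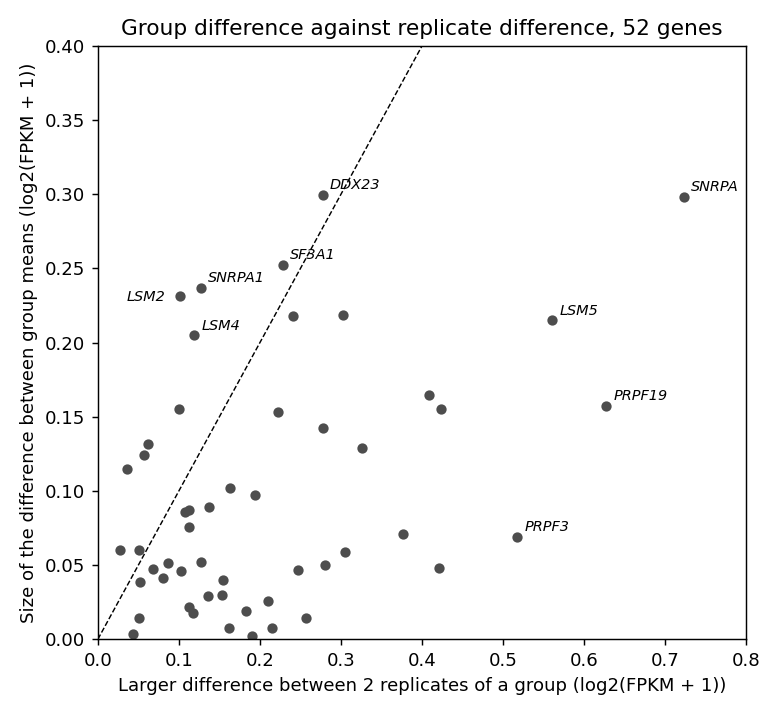
For each of the 52 genes, the larger of the 2 replicate differences (horizontal, log2(FPKM + 1)) against the size of the difference between the group means (vertical, same unit); the dashed line marks equality. The 11 genes left of the line include LSM2, SNRPA1, LSM4, SF3A1 and DDX23, and the genes far to the right are SNRPA, PRPF19, LSM5 and PRPF3.

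Promoters of these genes were searched for what they share. The RefSeq table (GRCh38.p14) gave a window from 250 bases before to 50 bases after the start for 48 of the 52 genes. The letters CCGGAAG, the core bound by ETS-family transcription factors, or their reverse complement CTTCCGG, were present in 26 of 48 windows (54.2%), against 20.3% of the 9144 windows of tested genes and 10.7% of all 27305 windows. The other motifs searched on both strands stood nearer to their share among tested genes. CCAAT was in 39.6% of the members' windows, against 37.0% of those of tested genes, GGGCGG in 68.8% against 71.3%, TATAAA in 2.08% against 5.17%, and the palindromic NRF1 motif in 2.08% against 2.32%. The 35 matches of CCGGAAG began at a median of 50 bases before the start, 17 on the gene's strand and 18 on the other. None of these motifs contains another. A match is a description of letters, not of binding. The 26 genes with the letters had a median log2 fold change of -0.06 and the 22 without had -0.03. The stretches printed here, from 120 bases before to 20 after the start, are of SNRPB, the gene with the highest level, and of SNRPA1 and LSM2, the genes with the smallest p among the 52. Capitals mark CCGGAAG or CTTCCGG; the LSM2 window holds neither. The positions on GRCh38.p14, all on the minus strand, are chr20:2470770-2470909 for SNRPB, chr15:101295229-101295368 for SNRPA1 and chr6:31806947-31807086 for LSM2.
SNRPB: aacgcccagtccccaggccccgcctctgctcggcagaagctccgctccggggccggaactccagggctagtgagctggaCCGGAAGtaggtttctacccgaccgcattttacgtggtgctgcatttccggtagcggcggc
SNRPA1: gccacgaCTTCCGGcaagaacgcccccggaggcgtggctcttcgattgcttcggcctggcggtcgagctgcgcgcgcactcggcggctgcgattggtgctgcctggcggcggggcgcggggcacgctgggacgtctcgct
LSM2: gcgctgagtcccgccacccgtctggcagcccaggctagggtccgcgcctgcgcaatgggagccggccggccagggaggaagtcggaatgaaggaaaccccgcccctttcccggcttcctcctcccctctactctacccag

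The 3 proteins particular to U1 are the 70K, A and C proteins. SNRNP70, which encodes the 70K protein, which binds U1 RNA and contacts SR proteins, stood at 87.4 and 88.1 FPKM in the knockdown samples, against 90.4 and 106 FPKM in the controls. The knockdown values were close together and lay below both controls, of which control 2 stood apart (log2 fold change -0.15, limma adjusted p = 0.922). SNRPA, which encodes the A protein, which binds another stem-loop of U1 RNA, was at 47.4 and 28.3 FPKM in knockdown, against 47.5 and 43.3 FPKM in the controls. Knockdown 2 alone was low: the log2 fold change was -0.30 over all samples and 0.063 without knockdown 2 (limma adjusted p = 0.956 and 0.999). SNRPC encodes the C protein, which contacts the 5′ splice site. It stood at 59.1 and 72.1 FPKM in knockdown and 60.1 and 78.3 FPKM in the controls, with both samples numbered 2 above both numbered 1. The interval for SNRPA was the widest of the 52 toward lower values, reaching -0.99.

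The 7 Sm genes differed far more from each other than between groups. Averaged over the 4 samples, SNRPB (SmB) was highest at 199 ± 3.22 FPKM and SNRPD1 (SmD1) lowest at 15.9 ± 1.23 FPKM (SD, n = 4), 12.5-fold apart per length. Between them SNRPG and SNRPE, at 73.6 and 71.7 FPKM, and SNRPD3 and SNRPF, at 40.8 and 38.5 FPKM, had overlapping ranges, so their order is not resolved. SNRPE also overlapped with SNRPD2, at 59.7 FPKM. These genes encode the ring that closes around the Sm site of the small nuclear RNA before import into the nucleus.

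The values of SNRPB nearly coincided, at 199 and 197 FPKM in the knockdown samples, against 196 and 203 FPKM in the controls. Its log2 fold change was -0.01 with a 95% interval of -0.24 to 0.21. SNRPG (SmG) was at 68.7 and 74.1 FPKM in knockdown and 75.5 and 76.2 FPKM in the controls, below both controls by a small margin (log2 fold change -0.09, limma adjusted p = 0.992). The table also lists 20 SNRPG pseudogenes that together held 33.7 and 34.6 FPKM in knockdown and 33.5 and 35.8 FPKM in the controls, so the level of SNRPG depends on how fragments were shared among near-identical copies. SNRPD2 (SmD2) was at 51.6 and 60.8 FPKM in knockdown and 53.8 and 72.5 FPKM in the controls, higher in both samples numbered 2 (log2 fold change -0.16, limma adjusted p = 0.998). That difference was 0.057 without control 2 and -0.37 without control 1. SNRPD1 was at 15.9 and 15.98 FPKM in knockdown and 14.4 and 17.4 FPKM in the controls, where the controls lay on either side of the knockdown values. For SNRPD3, SNRPE and SNRPF the groups also overlapped, with log2 fold changes between 0.02 and 0.06.

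The 13 genes of the U2 particle and its recruitment ranged from SF3B5 at 110 ± 4.52 FPKM to DDX46 at 24.4 ± 1.81 FPKM (SD, n = 4). Of these 9 had a log2 fold change below 0 (69.2%, against 49.8% of all tested genes). In both knockdown samples SNRPA1, SF3A1 and SF3B2 lay below both controls (23.1%, against 17.1% of all tested genes). Above both controls lay 0 (against 17.5%). SNRPA1 encodes the A′ protein of U2, which with the B″ protein binds a stem-loop of U2 RNA. It stood at 46.2 and 47.0 FPKM in the knockdown samples, against 57.6 and 52.7 FPKM in the controls (ratio of means 0.845, log2 fold change -0.24, SE 0.0944, limma adjusted p = 0.83). The 2 knockdown values lay close together and below both controls. SNRPB2, which encodes its partner B″, was at 27.0 and 25.4 FPKM in knockdown and 29.6 and 24.8 FPKM in the controls, with overlapping groups. The ranges of SNRPB2 and DDX46 over the 4 samples overlapped, so their order is not resolved.

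SF3a and SF3b bind the branch site region with U2. SF3A1 encodes the largest SF3a subunit and was at 35.9 and 42.3 FPKM in knockdown, against 46.7 and 46.5 FPKM in the controls (log2 fold change -0.25, SE 0.114, limma adjusted p = 0.864). The controls nearly coincided and knockdown 1 was lowest. SF3A2 was at 36.4 and 31.3 FPKM in knockdown and 43.9 and 35.4 FPKM in the controls, and SF3A3 at 33.4 and 30.5 FPKM in knockdown and 32.9 and 33.4 FPKM in the controls, both with overlapping groups. SF3B1 encodes the SF3b subunit that clamps the branch helix and is often mutated in blood cancers. It stood at 54.3 and 44.1 FPKM in knockdown and 58.8 and 43.7 FPKM in the controls, higher in both samples numbered 1 and with a log2 fold change of -0.05. SF3B2 was at 96.0 and 97.8 FPKM in knockdown and 101 FPKM in each control (log2 fold change -0.06). SF3B3, which encodes a large scaffold subunit, was at 44.7 and 36.7 FPKM in knockdown and 35.7 and 37.6 FPKM in the controls, so knockdown 1 alone lay above the controls.

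SF3B5, a small subunit gene on chromosome 6 (144416018 to 144416710, minus strand, GRCh37), was at 114 and 108 FPKM in knockdown and 114 and 105 FPKM in the controls. SF3B4 was at 36.6 and 37.7 FPKM in knockdown and 34.3 and 39.1 FPKM in the controls. The values of neither gene separated the groups. U2AF2 encodes the large U2AF subunit, which binds the polypyrimidine tract; it was at 68.6 and 71.4 FPKM in knockdown and 70.0 and 80.3 FPKM in the controls. U2AF1 encodes the small subunit, which reads the AG of the 3′ splice site, and was at 52.2 and 49.1 FPKM in knockdown and 47.7 and 50.02 FPKM in the controls. The overlapping row U2AF1L5 held a further 3.78 and 4.54 FPKM in knockdown and 5.65 and 3.73 FPKM in the controls. DDX46, the helicase that admits U2 to the branch site, was at 26.1 and 22.7 FPKM in knockdown and 25.9 and 22.9 FPKM in the controls, a log2 fold change of -0.00.

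**Figure D3:**
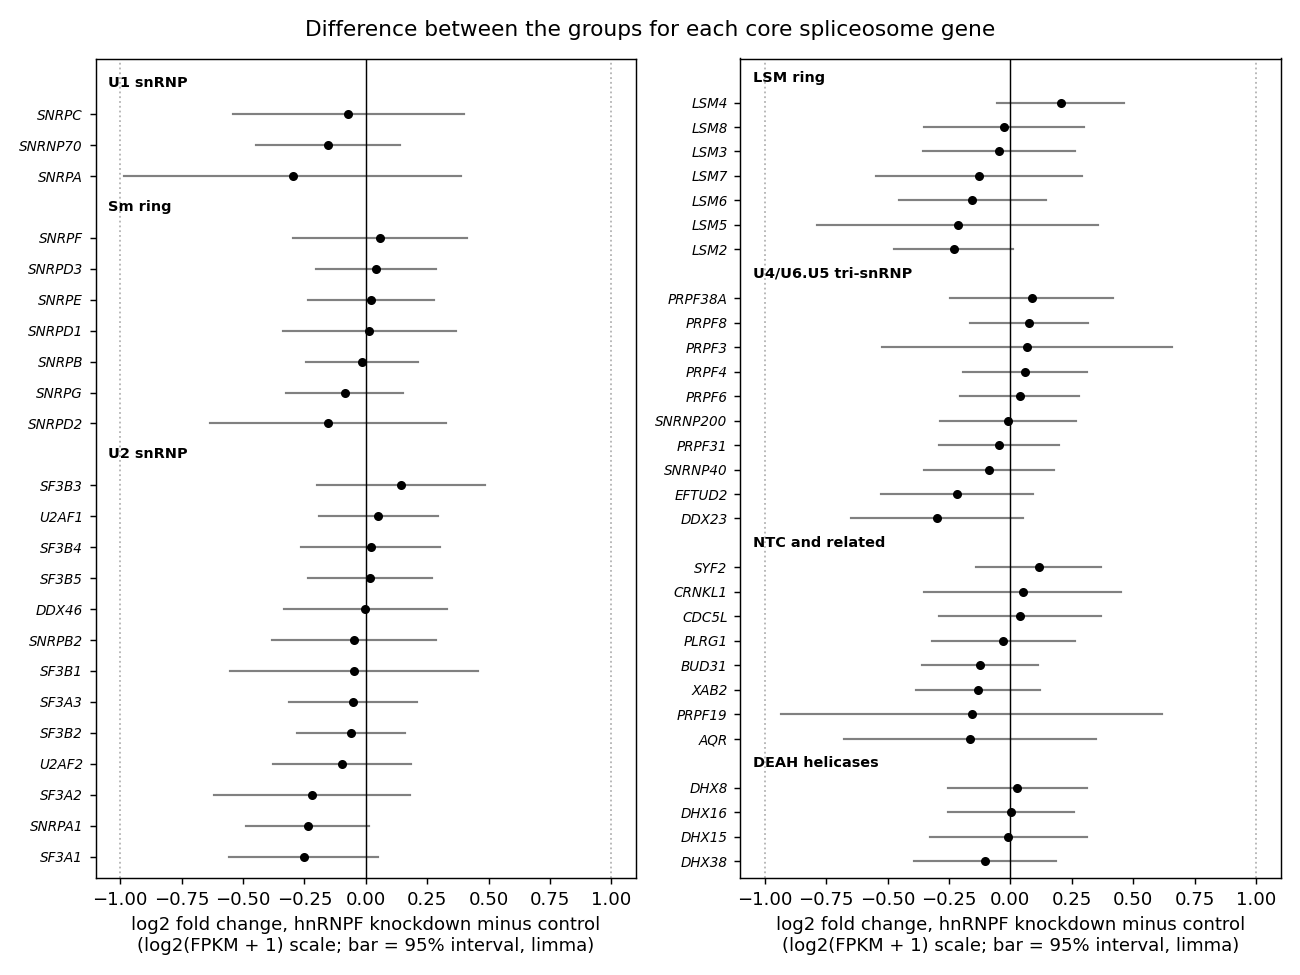
Log2 fold change of hnRNPF knockdown minus control (points) with its 95% interval from limma (bars) for the 52 genes by role, on the log2(FPKM + 1) scale; dotted lines mark a 2-fold change. Every bar crosses 0 and every bar lies inside the dotted lines, the SNRPA bar reaching -0.99.

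The LSM ring sits on the 3′ end of U6 RNA, and LSM2 to LSM7 also form, with LSM1 in place of LSM8, the cytoplasmic ring of mRNA decay. By level the 7 genes formed 2 sets. LSM4, LSM7 and LSM2 averaged 80.7, 51.0 and 42.8 FPKM, the ranges of LSM7 and LSM2 overlapping. LSM8, LSM5, LSM6 and LSM3 averaged between 17.6 and 11.8 FPKM, with overlapping ranges between neighbours. Of the 7 genes 6 had a log2 fold change below 0 (85.7%, against 49.8% of all tested genes), with a median of -0.13. Without overlap 2 lay below and 1 above (28.6% and 14.3%, against 17.1% and 17.5% of all tested genes). LSM2 (chromosome 6, 31765173 to 31774761, minus strand, GRCh37) stood at 39.3 and 39.3 FPKM in the knockdown samples, against 48.0 and 44.7 FPKM in the controls. Its ratio of means was 0.848 and its log2 fold change -0.23 (SE 0.0919, limma adjusted p = 0.83), the smallest p of the 52.

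LSM4 (chromosome 19, 18417040 to 18434084, minus strand, GRCh37) had a difference of the opposite sign, at 82.9 and 90.1 FPKM in knockdown, against 77.6 and 72.1 FPKM in the controls (log2 fold change 0.21, SE 0.0975, limma adjusted p = 0.87). Its groups did not overlap. LSM6 was at 11.8 and 11.5 FPKM in knockdown and 13.6 and 12.6 FPKM in the controls, below both controls. LSM5 was at 12.5 and 11.9 FPKM in knockdown and 17.5 and 11.6 FPKM in the controls. Control 1 alone was high for LSM5, whose log2 fold change was -0.22 over all samples and 0.065 without control 1 (limma adjusted p = 0.984 and 0.979). LSM7 was at 54.4 and 43.2 FPKM in knockdown and 57.7 and 48.8 FPKM in the controls, higher in both samples numbered 1. LSM3 and LSM8, the second of which defines the nuclear ring, had log2 fold changes of -0.05 and -0.03 and overlapping groups.

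The tri-snRNP genes were split, 5 of 10 below 0 and 5 above. Without overlap 4 lay below and 3 above (40% and 30%, against 17.1% and 17.5% of all tested genes). The 3 above were PRPF8, PRPF6 and PRPF4. Under median-ratio scaling only 1 of all 52 genes lay above without overlap (1.92%, against 17.6% of all tested genes). PRPF8, the scaffold around the catalytic centre, was the highest at 65.6 ± 3.01 FPKM, and PRPF38A, of the complex just before activation, the lowest at 9.47 ± 0.568 FPKM (SD, n = 4). DDX23, the U5 helicase that releases U1 from the 5′ splice site, had the lowest log2 fold change of the 52. It stood at 28.9 and 31.0 FPKM in the knockdown samples, against 33.6 and 40.9 FPKM in the controls (ratio of means 0.804, log2 fold change -0.30, SE 0.132, limma adjusted p = 0.855). Both knockdown values were below both controls, and control 2 stood above the other 3 samples. EFTUD2, a GTPase of U5, showed the same order of samples at 44.4 and 45.3 FPKM in knockdown, against 48.0 and 56.9 FPKM in the controls (log2 fold change -0.22, SE 0.117, limma adjusted p = 0.89).

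SNRNP200, the helicase that unwinds U4 from U6, was at 57.2 and 51.0 FPKM in knockdown and 56.2 and 52.5 FPKM in the controls. PRPF8 was at 70.0 and 64.7 FPKM in knockdown and 63.3 and 64.3 FPKM in the controls, a log2 fold change of 0.08 without overlap. SNRNP40, a WD-repeat protein of U5, was at 32.9 and 29.8 FPKM in knockdown and 33.7 and 33.1 FPKM in the controls. These 3 U5 genes differed by at most 0.09 in size on the log2 scale. PRPF6, which bridges U5 and U4/U6, was at 30.3 and 30.4 FPKM in knockdown and 29.02 and 30.1 FPKM in the controls. PRPF31, a U4/U6 protein, was at 29.7 and 30.2 FPKM in knockdown and 30.2 and 31.7 FPKM in the controls.

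Among the other U4/U6 genes PRPF4 was at 25.98 and 25.1 FPKM in knockdown and 24.1 and 24.8 FPKM in the controls, a narrow separation (log2 fold change 0.06). Its partner PRPF3 was at 21.8 and 15.0 FPKM in knockdown and 19.2 and 15.4 FPKM in the controls. PRPF3 was higher in both samples numbered 1, and its interval reached 0.66, the highest bound among the 52. PRPF38A was at 9.42 and 10.1 FPKM in knockdown and 9.55 and 8.75 FPKM in the controls, with overlap.

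The PRPF19 complex and its partners counted 8 genes, from PRPF19 at 48.9 ± 12.0 FPKM to CRNKL1 at 8.50 ± 0.768 FPKM (SD, n = 4). PRPF19 encodes a ubiquitin ligase and had the widest interval of the 52, from -0.93 to 0.62. Its values were 36.1 and 56.4 FPKM in the knockdown samples and 41.4 and 61.5 FPKM in the controls, so the samples numbered 2 lay well above those numbered 1 in both groups. Its log2 fold change was -0.16 over all samples, 0.12 without control 2 and 0.16 without knockdown 1. BUD31 was at 40.4 and 39.0 FPKM in knockdown, against 44.3 and 42.5 FPKM in the controls (log2 fold change -0.12, limma adjusted p = 0.921). The range of PRPF19 overlapped with that of BUD31, so their order is not resolved. XAB2, a scaffold with a role in transcription-coupled repair too, was at 21.98 and 21.8 FPKM in knockdown, against 24.6 and 23.6 FPKM in the controls (log2 fold change -0.13, limma adjusted p = 0.925). BUD31 and XAB2 lay below both controls in both knockdown samples (25% of the 8 genes, against 17.1% of all tested genes). Above both controls lay 1 (12.5%, against 17.5%).

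SYF2 lay above both controls, at 21.8 FPKM in each knockdown sample, against 19.8 and 20.3 FPKM in the controls (log2 fold change 0.11). AQR, an intron-binding helicase, was at 9.86 and 8.30 FPKM in knockdown and 12.0 and 8.78 FPKM in the controls, with control 1 high. CDC5L and PLRG1, which form the centre of the complex with PRPF19, had log2 fold changes of 0.04 and -0.03. CRNKL1, with the lowest mean of the 52, was at 8.80 and 8.49 FPKM in knockdown and 9.27 and 7.46 FPKM in the controls. The ranges of CRNKL1 and AQR overlapped, so that rank is not resolved. The groups overlapped for AQR, CDC5L, PLRG1 and CRNKL1.

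The 4 DEAH-box helicases drive the late steps, in order DHX16 at activation, DHX38 between the catalytic steps, DHX8 at mRNA release and DHX15 at disassembly. Their log2 fold changes ran from -0.10 to 0.03. DHX15, which also serves ribosome assembly, was the highest at 84.1 and 72.3 FPKM in knockdown and 82.9 and 74.2 FPKM in the controls. DHX38 was at 22.3 and 19.8 FPKM in knockdown and 22.8 and 22.5 FPKM in the controls, below both (limma adjusted p = 0.992). DHX16 stood between 19.96 and 20.6 FPKM in all 4 samples. DHX8 was at 19.7 and 20.2 FPKM in knockdown and 18.6 and 20.5 FPKM in the controls (log2 fold change 0.03, limma adjusted p = 0.999).

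Other genes of the pathway were read from 3 further lists. Of 43 other spliceosome subunits, all tested, 29 had a log2 fold change below 0 (67.4%, against 49.8% of all tested genes) with a median of -0.04, and 1 had an unadjusted p under 0.05, toward higher (against 3.06% of all genes). That median was 0.046 without control 1, 0.014 without knockdown 2 and -0.11 without control 2. Of 20 genes of snRNP assembly and import 13 were below 0 (65%) with a median of -0.03, and 1 had an unadjusted p under 0.05, toward lower (against 3.02%). Of the minor spliceosome, which removes a rare class of introns, 9 of 10 genes were tested, 5 below 0 (55.6%), and 0 reached that p. None of these 72 tested genes passed after adjustment over all genes.

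SNRPN encodes SmN, a paralog of SmB that can take its place in the Sm ring and is best known from neurons. It stood at 36.1 and 35.4 FPKM in the knockdown samples, against 22.1 and 25.4 FPKM in the controls (ratio of means 1.51, log2 fold change 0.57, SE 0.111, limma adjusted p = 0.54). Both knockdown samples lay above both controls, while the values of SNRPB overlapped. The SNRPN locus (chromosome 15, 25068784 to 25223870, plus strand, GRCh37) overlaps SNURF and SNHG14 on the same strand. SNURF was at 4.996 and 5.35 FPKM in knockdown and 7.11 and 7.06 FPKM in the controls. Summed with all its overlapping rows, the SNRPN locus held 50.6 and 50.1 FPKM in knockdown and 37.7 and 41.8 FPKM in the controls.

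GEMIN4, a subunit of the SMN complex that loads Sm proteins onto small nuclear RNA, was at 16.3 and 14.8 FPKM in knockdown, against 22.8 and 24.3 FPKM in the controls (ratio of means 0.66, log2 fold change -0.57, SE 0.11, limma adjusted p = 0.54). Its groups were well apart but the difference did not pass the adjusted threshold. In the minor spliceosome the smallest p belonged to SNRNP25 and ZMAT5, which encode proteins of the U11/U12 particle. SNRNP25 was at 21.3 and 22.3 FPKM in knockdown and 19.9 and 16.2 FPKM in the controls (log2 fold change 0.27, limma adjusted p = 0.888). ZMAT5 was at 9.58 and 10.9 FPKM in knockdown and 12.6 and 11.1 FPKM in the controls (log2 fold change -0.19, limma adjusted p = 0.92). Both were free of overlap, in opposite directions. Of the 9 tested minor spliceosome genes, 2 lay lower and 2 higher without overlap. That is 22.2% each, against 17.1% and 17.5% of all tested genes.

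**Figure D4:**
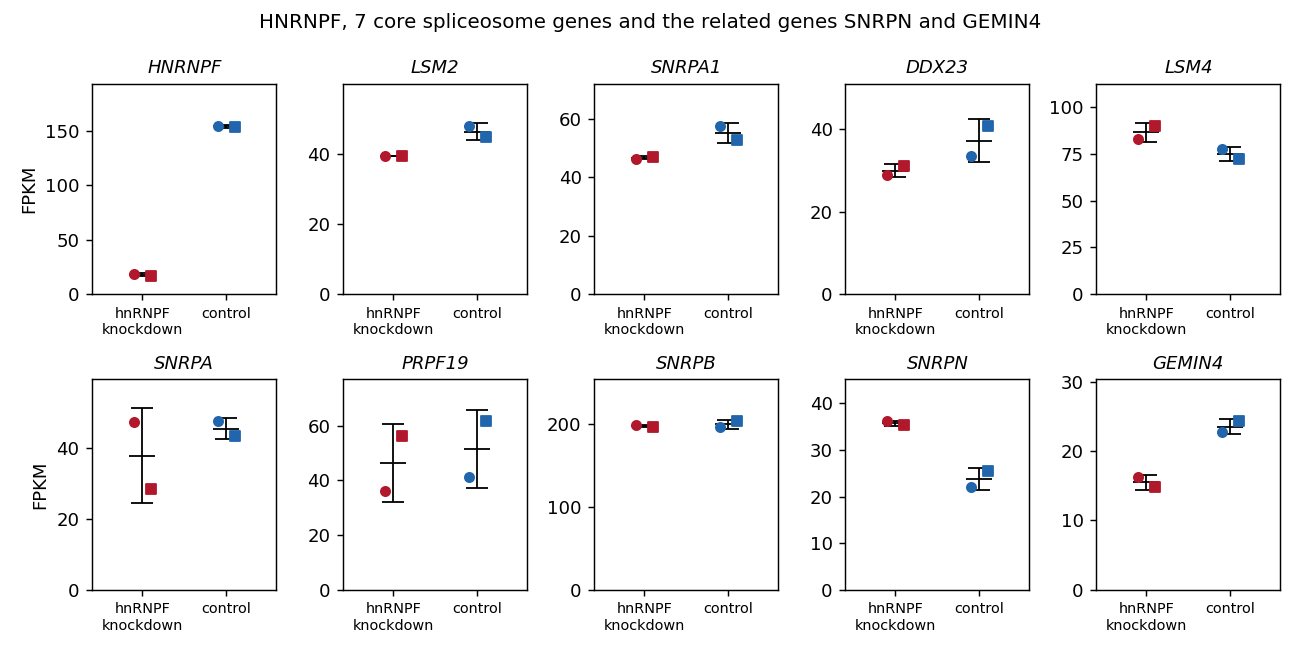
FPKM (vertical, from 0) of HNRNPF, 7 core spliceosome genes and the related genes SNRPN and GEMIN4 in hnRNPF knockdown (red) and control (blue) samples, circles for replicate 1 and squares for replicate 2; black marks give the mean and SD of 2 samples. HNRNPF at 18.7 and 16.6 against 154 and 153 FPKM stands apart from SNRPB at 199 and 197 against 196 and 203 FPKM, and SNRPA and PRPF19 show samples of 1 group far apart.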

How the data were processed

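PolyA-selected RNA was measured in 2 hnRNPF knockdown and 2 control samples, grouped by their titles. Per the labels' protocols the RNA was taken up with Trizol and the TruSeq libraries were stranded and paired-end. STAR 2.5.3a, Cuffdiff 2.2.1 and GRCh37 appear, without roles, in the submitters' processing notes, and the annotation release is not given in the sources used here. The deposited values are FPKM for each gene and sample, as stated per the file headers. Depth was estimated from the lowest steps of single-exon genes. Only 38.3% to 41.9% of low values came out as multiples of that step (tolerance 0.02), so reads could not be recovered and a count test was not run.

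Values were taken as log2(FPKM + 1), which understates changes of low genes. Genes averaging 1 FPKM or more were tested, two-sided, by limma 3.58.1 (R 4.3.3, intensity trend, no covariate), with Benjamini-Hochberg adjustment over the 13110 genes and a threshold of 0.05. The procedure was run on 10 simulated tables of 13110 genes, 200 of them changed. It recovered 62.7% of 2-fold and 98.5% of 8-fold changes, with a mean of 12.3 false calls a table. The simulated samples were independent, unlike same-numbered samples here, so this does not show what could be detected in these data. Single genes were not tested by permutation, because the smallest exact p of 2 samples against 2 is 0.333.

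Members, role groups and related lists were chosen with earlier results of these data known. The rule for named genes took HNRNPF, the 2 smallest p, the highest and the lowest level in each role group, members whose log2 fold change of 0.2 or more in size turned when 1 sample was left out, and in related lists up to 4 genes at an unadjusted p under 0.05 or else the 2 smallest p; the values of the other members are given beside these. Promoter letters came from RefSeq (GRCh38.p14), and for 44 of 48 members the transcribed bases were found in a GENCODE 29 transcript on the same strand. Alternatives were pseudocounts of 0.1 and 0.5 FPKM, 2 filters, 2 scalings, 2 limma settings, a replicate block, each sample left out, and overlapping rows summed.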

Additional observations from a re-analysis of the deposited data

How the results depend on the processing

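Of 402 recomputed log2 fold changes of the 29 named core and related genes, 383 kept their sign, and none passed adjustment. The 2 filters, the 2 limma settings and the replicate block leave a gene's log2 fold change as it was, so no sign could turn there. Under quantile normalization SNRPB (0.027), DDX46 (0.028) and DHX15 (0.010) turned. With 1 sample left out, log2 fold changes lay between -0.66 and 0.063 for SNRPA, -0.37 and 0.057 for SNRPD2, -0.040 and 0.011 for SNRPB, -0.11 and 0.14 for SNRPD1, -0.041 and 0.077 for SF3B5, -0.097 and 0.093 for DDX46, -0.50 and 0.065 for LSM5, -0.097 and 0.0051 for LSM3, -0.47 and 0.16 for PRPF19, -0.090 and 0.19 for CRNKL1, -0.039 and 0.097 for DHX8, and -0.12 and 0.0996 for DHX15. The median of the minor spliceosome list then lay between -0.17 and 0.033, turning without control 1 (0.033) and knockdown 2 (0.0070), and that of the other subunits between -0.11 and 0.046, turning without control 1 (0.046) and knockdown 2 (0.014).

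No core gene passed the adjusted threshold under any of the 14 alternatives, where the smallest adjusted p was 0.336, with the replicate block (limma). Among the fits that kept all 4 samples, core genes lower at an unadjusted p under 0.05 (limma) numbered 2 of 52 without the filter on low values (LSM2 and SNRPA1). With the replicate block there was 1 of 52 (DDX23). None was higher at that p in these fits. In either direction 1790 of the 13110 tested genes lay at that p with the block. Without the filter 1703 did, out of more than 13110 genes, so no share is given. With 1 sample left out, 1 group holds 1 sample, so counts at that p are not given. Without control 1 the log2 fold change was -0.44 for DDX23 and -0.34 for EFTUD2. It was -0.50 for LSM5 without control 2 and -0.66 for SNRPA without knockdown 1. The median of the core genes was -0.021 under quantile normalization and between -0.049 and -0.0062 with 1 sample left out, when the median of all tested genes moved between -0.063 and 0.062. Under median-ratio scaling 10 core genes did not overlap (19.2%, against 35.2% of all tested genes), 9 lower and 1 higher.

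Over all genes, 0 passed without the filter, 0 without the intensity trend, 0 with the replicate block, and 0 to 2 with 1 sample left out. HNRNPF kept -3.05, with adjusted p of 0.259, 0.0995 and 0.164 in those 3 fits (limma), and lay between -3.13 and -2.98 with 1 sample left out, with adjusted p between 0.0462 and 0.262. The causes were not tested.

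Same-numbered samples deviated together (correlation 0.39 over 13110 genes), but the labels give the number no meaning and 2 pairs do not establish pairing. With the replicate block 1790 genes had an unadjusted p under 0.05, against 797 without it. A sample left alone in its group was assumed to vary like the other group. With 2 samples a group, the half-width of the 95% interval was under 1.25-fold for 32 of 52 core genes. This held for 21.8% of all tested genes, which include genes at lower levels. The half-width reached 1.71-fold among the core genes.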
